A study of Mus musculus with 8 samples.

Results

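The transcripts described here are 9 genes of the complement system measured in peritoneal macrophages (pMacs) of wild-type (WT) and CD1d-deficient (CD1d-KO) mice. They encode the 3 chains of C1q (*C1qa*, *C1qb* and *C1qc*), the components C3 and C4 (*C3* and *C4b*), 2 proteins of the alternative pathway, factor B and properdin (*Cfb* and *Cfp*), and the receptors of the C3a and C5a peptides (*C3ar1* and *C5ar1*). The genes were picked by name and matched to the gene symbols of the GRCm38 annotation, without a threshold on any value. They are 9 of the 48795 genes in the tables, and all 9 were among the 13040 genes with enough reads to be tested.

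Complement is a chain of proteins that marks particles for uptake. C1q binds antibodies, dying cells and microbial surfaces and starts the classical pathway, in which C4 and C2 are cleaved to make an enzyme that cuts C3. Factor B, stabilised by properdin, forms the C3-cutting enzyme of the alternative pathway. The cleaved peptides C3a and C5a act on their receptors on myeloid cells. The liver makes most circulating components, while tissue macrophages are a main source of C1q and also make C3, factor B and properdin.

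Macrophages came from the peritoneal cavity of 4 C57BL/6 WT and 4 CD1d-KO mice, with no treatment named in the labels and 1 polyadenylated RNA library per mouse. CD1d is the molecule that presents lipids to NKT cells. The methods of the study name 2 kinds of CD1d-KO mice, one with a germline deletion of *Cd1d1* and *Cd1d2* and one with a floxed *Cd1d* allele recombined by Cre under the PGK promoter, which is active in most tissues, and neither they nor the labels say which gave these libraries. In both the gene is lost in all cells and not only in macrophages, and mice without CD1d also lack NKT cells. The study describes its mice as age- and sex-matched adults, and the controls of this RNA experiment as littermates. Libraries carry the numbers 1, 2, 3 and 5 in each genotype and were compared in pairs of the same number. The p-values of fits with this pairing therefore rest on the spread of the differences within pairs, not on the whole spread between mice. In such bulk RNA, fewer cells of a type and less RNA per cell cannot be told apart.

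Between 13698864 and 19059432 expected counts fell on genes per library. *Cd1d1* had 67.6, 174, 95.3 and 140 normalized counts in WT replicates 1, 2, 3 and 5 and 1.13, 0 and 1.09 in CD1d-KO replicates 2, 3 and 5. The library labelled CD1d-KO replicate 1 held 60.1, which goes against its label, so results are also given without pair 1. *Cd1d1* lies on chromosome 3, and the 9 complement genes lie on chromosomes 4, 6, 7, 17 and X. All 8 markers of large peritoneal macrophages were detected in every library, among them *Gata6* and *Timd4*, and their summed level was 4403 to 5240 TPM (transcript abundance scaled for length and depth) in WT and 4853 to 5548 TPM in CD1d-KO pMacs. Most of this sum was *Prg4*, with means of 3035 TPM in WT and 3378 TPM in CD1d-KO pMacs. The 8 B cell markers summed to 163 to 497 TPM in WT and 111 to 841 TPM in CD1d-KO pMacs, and 9 genes of small macrophages and dendritic cells to 615 to 1049 TPM and 444 to 1260 TPM. Of cells that make complement outside the macrophage lineage, 7 mesothelial markers summed to at most 1.98 TPM with *Krt19* at 0, and 4 hepatocyte markers to at most 0.32 TPM with *Ttr* at 0.

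Complement transcripts were abundant in pMacs of both genotypes. Together the 9 genes made up 0.816% to 0.971% of all TPM in the WT libraries and 0.848% to 1.14% in the CD1d-KO libraries. *C4b* was the highest, at 2413 ± 145 TPM in WT and 2755 ± 123 TPM in CD1d-KO pMacs (SD, n = 4 mice), and ranked 31 by mean TPM among the 13040 tested genes. *Cfb* followed with 1652 ± 556 and 2390 ± 803 TPM (rank 39), and *Cfp* with 1482 ± 143 and 1641 ± 156 TPM (rank 55). The C1q chains came next, *C1qb* at 1106 ± 98.3 and 1030 ± 199 TPM, *C1qc* at 950 ± 102 and 943 ± 149 TPM and *C1qa* at 854 ± 114 and 929 ± 208 TPM, with ranks between 100 and 135. *C3*, the protein on which all pathways converge, was lower in transcript level, at 152 ± 20.9 and 217 ± 55.1 TPM (rank 618). The receptors were the lowest of the 9, with *C3ar1* at 141 ± 12.7 and 153 ± 30.6 TPM (rank 780) and *C5ar1* at 119 ± 19.9 and 115 ± 17.2 TPM (rank 961).

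The order of the 9 mean levels was the same in both genotypes, but several neighbours in it could not be separated. Over the 8 libraries the ranges of *C4b* and *Cfb* overlapped, as did those of *Cfb* and *Cfp*, and *C4b* exceeded *Cfb* in 6 of 8 libraries. *Cfp* exceeded *C1qb*, and *C1qa* exceeded *C3*, in 8 of 8 libraries with no overlap. The 3 C1q chains overlapped each other, and *C3*, *C3ar1* and *C5ar1* overlapped their neighbours. The abundance of *Cfb* varied most among mice, from 896 to 2210 TPM within WT alone, while *C4b* stayed between 2296 and 2879 TPM in all 8 libraries.

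**Figure D1:**
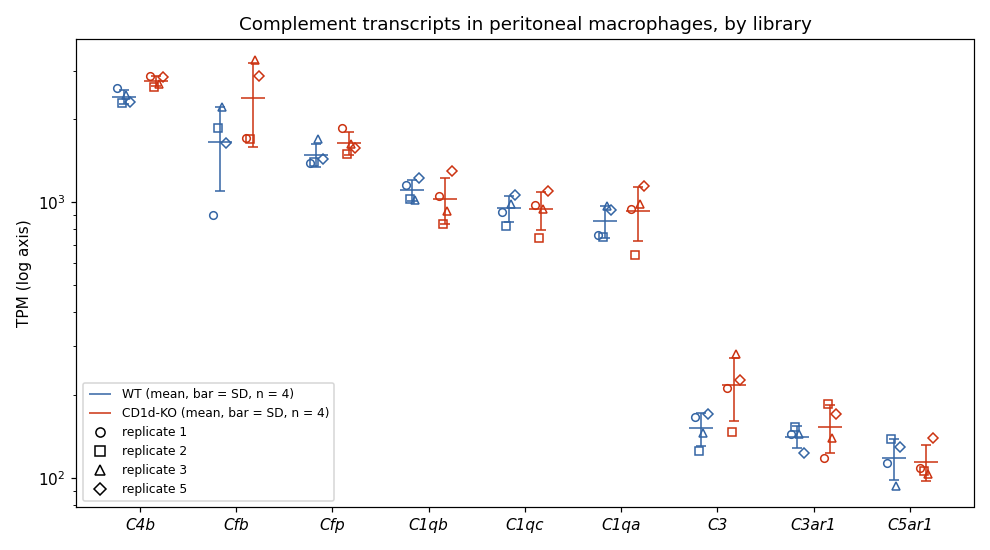
Level of each of the 9 complement genes in TPM on a log axis, by library. Points are libraries with a marker for each replicate number, and the cross bars and vertical bars are the mean and SD of the 4 WT and the 4 CD1d-KO mice. *C4b* sits highest, between 2296 and 2879 TPM, *Cfb* is the most spread, and *C3* and the receptors lie lowest, between 93.4 and 281 TPM.

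Between the genotypes, *C3* and *Cfb* had the largest differences of the 9 genes, and the C1q chains and the receptors had the smallest. The fitted level of *C3* was 1.46-fold and that of *Cfb* 1.47-fold higher in CD1d-KO than in WT pMacs, and *C4b* was 1.14-fold higher. The log2 fold change lay between -0.12 and 0.15 for the other 6 genes. None of the 9 reached the thresholds of the study, an adjusted p under 0.01 with a fold change above 1.5, which the study applied in DESeq2. In the quasi-likelihood test of edgeR reported here, 0.0383% of all tested genes passed them. None of the 9 had an adjusted p under 0.05 in edgeR either, as 0.406% of tested genes did. At an unadjusted p under 0.05, 2 of 9 were higher in CD1d-KO pMacs (*C3* and *Cfb*), where 7.35% of all tested genes were, and 0 of 9 were lower, where 5.01% were. Of the 9 genes, 6 had a positive and 3 a negative log2 fold change, with a median of 0.10 against 0.00 over all tested genes. The counts of 2 and 0 are small and are given as a description of these genes.

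*C1qa*, *C1qb* and *C1qc* lie side by side on the minus strand of chromosome 4 of GRCm38, *C1qa* (ENSMUSG00000036887) at chr4:136895917-136898803, *C1qc* (ENSMUSG00000036896) at chr4:136889804-136893065 and *C1qb* (ENSMUSG00000036905) at chr4:136880129-136886187. The gaps between them are 2851 and 3616 bases. The promoters available for them are shown because the 3 chains are parts of 1 protein. The RefSeq promoter table of GRCm38.p6 gives the 250 bases before and 50 bases after a gene's start for 6 of the 9 genes. It holds *C1qb* (chr4:136886151-136886450, minus strand) and *C1qc* (chr4:136892865-136893164, minus strand), printed 5′ to 3′ with capitals marking a match to GAGGAAGT, a site for the myeloid factor PU.1, on the opposite strand.
C1qb: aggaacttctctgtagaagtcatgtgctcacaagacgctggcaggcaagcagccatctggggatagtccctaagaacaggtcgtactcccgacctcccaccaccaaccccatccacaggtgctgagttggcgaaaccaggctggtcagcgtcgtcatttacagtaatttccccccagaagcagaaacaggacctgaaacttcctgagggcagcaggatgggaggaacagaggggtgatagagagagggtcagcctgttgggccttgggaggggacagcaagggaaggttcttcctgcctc
C1qc: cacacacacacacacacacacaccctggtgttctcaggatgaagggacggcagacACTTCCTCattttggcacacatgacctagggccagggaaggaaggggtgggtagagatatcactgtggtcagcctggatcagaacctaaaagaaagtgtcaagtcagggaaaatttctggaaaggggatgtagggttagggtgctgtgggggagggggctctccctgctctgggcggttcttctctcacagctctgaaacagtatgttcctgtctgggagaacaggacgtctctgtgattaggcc
Neither window held GAAANNGAA (interferon-stimulated response element core), TTCNNNGAA (gamma-activated site), GGGANTTCC (NF-kB) or TTGCGCAA (C/EBP), each searched on both strands, with GAAANNGAA and TTCNNNGAA able to overlap. Only exact matches were counted, with N as any base, so a missing match does not mean that a factor has no site there. In all 32851 promoters of the table, GAGGAAGT was found in 3.20%, GAAANNGAA in 8.56%, TTCNNNGAA in 8.30%, GGGANTTCC in 1.68% and TTGCGCAA in 0.183%.

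Levels of the C1q chains did not separate the genotypes. *C1qb* had 9925, 11020, 10657 and 12237 normalized counts in WT replicates 1, 2, 3 and 5 and 9283, 8837, 10375 and 12082 in the CD1d-KO replicates. It was lower in the CD1d-KO library of 4 of 4 pairs, which holds for 10.1% of tested genes, but the ranges of the genotypes overlapped and by TPM it was lower in 3 of 4 pairs. The fitted difference was -0.12 on the log2 scale (SE 0.081, adjusted p = 0.619, edgeR). *C1qa* had 6258, 7628, 9619 and 8933 normalized counts in WT and 7915, 6486, 10467 and 10116 in CD1d-KO replicates 1, 2, 3 and 5. Its ranges overlapped, and 3 of 4 pairs had more *C1qa* in the CD1d-KO library (log2 difference 0.10 with SE 0.10, adjusted p = 0.749, edgeR). *C1qc* had 8869, 9808, 11520 and 11840 normalized counts in WT and 9628, 8741, 11734 and 11423 in CD1d-KO pMacs, with overlapping ranges and 2 pairs in each direction. The log2 fold change of *C1qc* was -0.02 (SE 0.079, adjusted p = 0.955, edgeR), and its 95% interval on the fold scale ran from 0.870 to 1.12. The intervals of *C1qa* and *C1qb* on that scale were 0.911 to 1.26 and 0.808 to 1.05, so differences of 1.5-fold lay outside all 3. Without pair 1 the log2 fold changes of *C1qa*, *C1qb* and *C1qc* were 0.02, -0.13 and -0.06. Without pair 2 they were 0.22, -0.05 and 0.03, and *C1qa* then had an unadjusted p under 0.05 (adjusted p = 0.325, edgeR).

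The share of *C1qc* in the C1q transcripts varied least among mice. By TPM, *C1qc* was 31.1% to 33.4% of the summed C1q level over the 8 libraries, *C1qa* 26.9% to 34.5% and *C1qb* 32.5% to 40.6%. In WT replicate 1 *C1qb* was 1.51 times *C1qa*, the most unequal of the 8 libraries, and in CD1d-KO replicate 3 it was 0.944 times *C1qa*. C1q protein is built from equal numbers of the 3 chains. Across the 8 libraries, log2 levels of *C1qa* and *C1qc* correlated with a Pearson r of 0.95, *C1qb* and *C1qc* with 0.76 and *C1qa* and *C1qb* with 0.62, given as a description since the libraries differ in genotype and pair.

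*C3* (ENSMUSG00000024164, chr17:57203970-57228136, minus strand) was higher in the CD1d-KO library of 4 of 4 pairs, as 10.6% of all tested genes were. It had 5742, 5982, 6030 and 7056 normalized counts in WT replicates 1, 2, 3 and 5 and 7872, 6169, 14045 and 9686 in the CD1d-KO replicates. The WT mice lay close together, CD1d-KO replicate 3 stood highest, and CD1d-KO replicate 2 fell within the WT range. The log2 ratios of the pairs were 0.46, 0.04, 1.22 and 0.46, and the fitted log2 fold change was 0.54 (SE 0.17, adjusted p = 0.241, edgeR). Its 95% interval corresponded to 1.11-fold to 1.91-fold. Without replicate 3 the log2 fold change was 0.32, and without pair 1 it was 0.57 (adjusted p = 0.472, edgeR). DESeq2 with the same covariates gave *C3* an adjusted p of 0.0411, and at the thresholds of the study it called more genes, 106 against 5 in edgeR. None of the 5 motifs was found in the promoters of *C3*, *Cfp* and *C3ar1*. The *C5ar1* promoter held a match to GAAANNGAA on the opposite strand, from base -66 relative to the start site. That of *C1ra*, another complement gene, held a match to TTCNNNGAA from base 32. *Cfp*, like *C3*, had a positive ratio in every pair, but its promoter is not printed. The promoter of *C3* (RefSeq, GRCm38.p6, chr17:57228087-57228386, minus strand) is shown as an example.
C3: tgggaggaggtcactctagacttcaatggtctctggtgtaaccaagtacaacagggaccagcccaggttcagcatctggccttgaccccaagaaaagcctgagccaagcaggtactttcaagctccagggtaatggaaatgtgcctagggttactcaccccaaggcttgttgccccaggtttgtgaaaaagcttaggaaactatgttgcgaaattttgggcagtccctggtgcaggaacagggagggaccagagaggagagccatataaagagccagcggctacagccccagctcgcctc

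*C4b* (ENSMUSG00000073418, chr17:34728380-34743882, minus strand), which encodes C4 of the classical and lectin pathways, was the only one of the 9 genes whose genotypes did not overlap, as was the case for 1.96% of all tested genes. In WT replicates 1, 2, 3 and 5 it had 85646, 93449, 94316 and 87170 normalized counts and in the CD1d-KO replicates 97615, 103383, 112039 and 99510. Every CD1d-KO library exceeded every WT library, and the pairs had similar log2 ratios of 0.19, 0.15, 0.25 and 0.19. The difference was small, with a log2 fold change of 0.19 (SE 0.083, adjusted p = 0.405, edgeR) and a 95% interval whose upper end was 1.31-fold and whose lower end lay at no difference. Without pair 1 the value was again 0.19 (adjusted p = 0.664, edgeR). The neighbouring gene *C4a*, 65209 bases away, has a transcript that is 95.9% identical to that of *C4b* over 5378 bases. *C4a* received 0.0374% to 0.0758% as many counts as *C4b*, and how reads were split between these copies is uncertain.

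*Cfb* (ENSMUSG00000090231, chr17:34856374-34862518, minus strand), which encodes the protease of the alternative pathway, varied widely among mice of the same genotype. It had 14030, 36017, 40848 and 29530 normalized counts in WT replicates 1, 2, 3 and 5 and 27547, 32466, 65232 and 47994 in the CD1d-KO replicates. The ranges overlapped, WT replicate 1 was the lowest of the 8 libraries and CD1d-KO replicate 3 the highest. The pairs had log2 ratios of 0.97, -0.15, 0.68 and 0.70, so 3 of 4 were positive, and the fitted log2 fold change was 0.55 (SE 0.17, adjusted p = 0.237, edgeR). Its 95% interval was 1.11-fold to 1.93-fold. The value depended on single pairs, since the log2 fold change was 0.41 without pair 1 (adjusted p = 0.551, edgeR) and 0.79 without pair 2 (adjusted p = 0.0263, edgeR). Without pair 3 and without pair 5 it was 0.51 and 0.50, and *Cfb* missed an unadjusted p under 0.05 when pair 1, 3 or 5 was left out.

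*Cfp* (ENSMUSG00000001128, chrX:20925454-20931555, minus strand) encodes properdin, which stabilises the alternative pathway enzyme. Its normalized counts were 18151, 22683, 26606 and 21533 in WT and 24796, 23821, 27248 and 22114 in CD1d-KO replicates 1, 2, 3 and 5. All 4 pairs had a higher CD1d-KO value, but 3 of these differences were small, with log2 ratios of 0.45, 0.07, 0.03 and 0.04, and by TPM only 3 of 4 pairs were higher. The ranges overlapped and the log2 fold change was 0.15 (SE 0.097, adjusted p = 0.593, edgeR). Without pair 1 it was 0.05. The Y-linked genes *Ddx3y* and *Eif2s3y* were at 0 in all 8 libraries. *Xist*, which silences the inactive X chromosome in females, had 6222 to 8187 normalized counts in WT and 9358 to 14842 in CD1d-KO pMacs. All 8 libraries thus had the pattern of female mice. The part of *Xist* in the level of the X-linked gene *Cfp* was not tested.

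*C3ar1* (ENSMUSG00000040552, chr6:122847138-122856161, minus strand) encodes the receptor of C3a. It had 5193, 6876, 6336 and 5174 normalized counts in WT and 4350, 8223, 6516 and 6641 in CD1d-KO replicates 1, 2, 3 and 5. CD1d-KO pMacs held both the lowest and the highest library, and the log2 fold change was 0.10 (SE 0.11, adjusted p = 0.769, edgeR). Pair 1 had the only negative log2 ratio, -0.26, and without it the log2 fold change was 0.22 (adjusted p = 0.570, edgeR). It was 0.05 without pair 2 and 0.01 without pair 5, and by TPM 2 pairs of *C3ar1* were higher and 2 lower. *C5ar1* (ENSMUSG00000049130, chr7:16246743-16259540, minus strand) encodes the receptor through which C5a attracts and activates myeloid cells. Its normalized counts were 2239, 3281, 2223 and 2844 in WT and 2004, 2655, 2460 and 2684 in CD1d-KO pMacs. The ranges overlapped, 3 of 4 pairs were lower in CD1d-KO pMacs, and the log2 fold change was -0.10 (SE 0.086, adjusted p = 0.693, edgeR). It was -0.08 without pair 1, -0.03 without pair 2 and -0.18 without pair 3, and by TPM 2 pairs of *C5ar1* were lower and 2 higher. The 95% intervals on the fold scale were 0.901 to 1.28 for *C3ar1* and 0.812 to 1.07 for *C5ar1*.

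**Figure D2:**
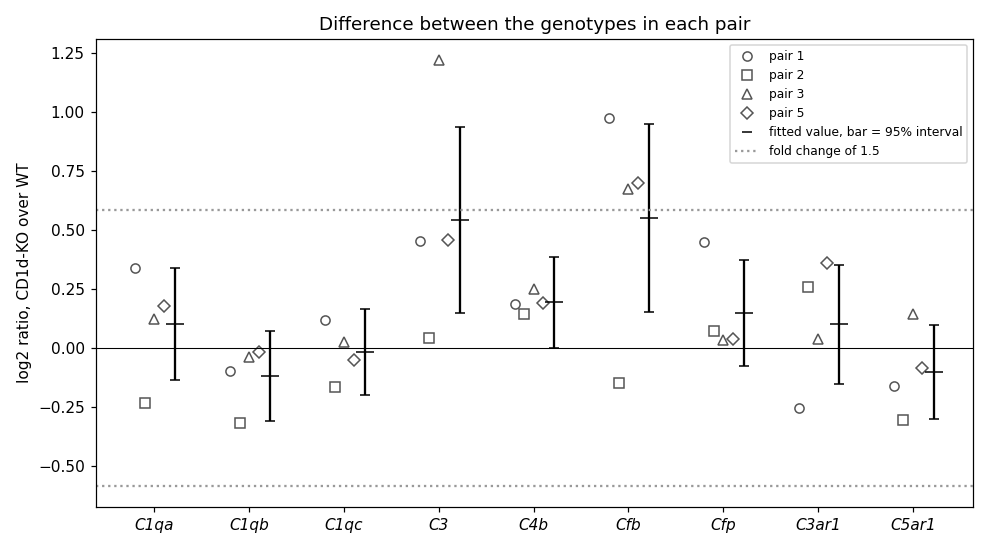
Log2 ratio of CD1d-KO over WT for the 9 genes in each pair of same-numbered libraries (points) with the fitted log2 fold change and its 95% interval from edgeR (bars). Dotted lines mark a fold change of 1.5. The 4 pairs of *C4b* lie between 0.15 and 0.25, those of *C3* between 0.04 and 1.22, and *Cfb* has 3 pairs between 0.68 and 0.97 and pair 2 at -0.15.

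Of 45 other complement genes, 20 had enough reads to be tested, and 25 had at most 1.22 TPM in any library. None of the 7 terminal pathway genes, which form the membrane attack complex, was tested, and *C7*, *C8a*, *C8b* and *C9* were at 0 counts in all 8 libraries. *Cfd*, which encodes factor D, the protease that activates factor B, had at most 1 count in any library. The transcripts of *Mbl1* and *Mbl2*, lectins made by the liver, and of the regulators *Cfi*, *C4bp* and *Vtn* were also at 0 in every library. In contrast, *Fcna*, on the list of the classical and lectin pathways, was tested and abundant, at 694 ± 72.5 TPM in WT and 660 ± 58.3 TPM in CD1d-KO pMacs. Its log2 fold change was -0.09 (adjusted p = 0.690, edgeR). *C8g* had 2 to 8 counts in each library, and *Hc*, which encodes C5, and *C6* at most 2.

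Of the 20 tested genes 15 had a positive log2 fold change, with a median of 0.08, where 6650 of all 13040 tested genes were positive, and 5 were higher and 1 lower at an unadjusted p under 0.05, beside 7.35% and 5.01% of all tested genes. Of these 6 genes, 3 kept an unadjusted p under 0.05 without pair 1 (*C1ra*, *C2* and *Itgax*), 5 without pair 2, 2 without pair 3 and 1 without pair 5 (*C1ra*). Among 5 tested genes of the classical and lectin pathways these were *C1ra*, *C2* and *Colec12*. *C1ra* encodes a protease of the C1 complex and had 208, 260, 294 and 262 normalized counts in WT and 322, 357, 558 and 365 in CD1d-KO replicates 1, 2, 3 and 5. The genotypes of *C1ra* did not overlap, as was the case for 1.96% of all tested genes, and its log2 fold change was 0.62 (SE 0.10, adjusted p = 0.0556, edgeR). It passed the thresholds in DESeq2 (adjusted p = 0.00394) and without the filter on counts (adjusted p = 7.9e-04, edgeR). Under these settings 106 and 236 of 25377 genes passed, against 5 of 13040 in the reported fit. Without pair 1 the log2 fold change of *C1ra* was again 0.62 (adjusted p = 0.182, edgeR).

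*C2*, whose product is the protease paired with C4, ends 85 bases upstream of *Cfb* on the same strand. It had 10.4, 49.0, 44.1 and 35.5 normalized counts in WT and 51.1, 29.5, 241 and 206 in CD1d-KO replicates 1, 2, 3 and 5. Replicates 3 and 5 of CD1d-KO pMacs were far above the other 6 libraries, while pair 2 ran the other way, as it did for *Cfb*. The log2 fold change of *C2* was 1.73 (SE 0.51, adjusted p = 0.227, edgeR). It passed the thresholds without pair 2 (log2 fold change 2.44, adjusted p = 0.00294, edgeR) and without the filter on counts (adjusted p = 0.00147, edgeR). In these fits 22 of 13205 and 236 of 25377 genes passed. Without pair 1 the log2 fold change of *C2* was 1.61 (adjusted p = 0.465, edgeR). The transcripts of *C2* and *Cfb* shared no matching stretch, but reads that run past the end of one gene into the other were not examined here. The scavenger receptor *Colec12* had a log2 fold change of 0.21 (adjusted p = 0.376, edgeR), and of 0.12 without pair 1.

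Of 4 tested regulators, *Cd55*, which speeds the decay of C3-cutting enzymes, had the largest difference, with 117, 61.8, 75.0 and 131 normalized counts in WT and 277, 32.9, 260 and 251 in CD1d-KO replicates 1, 2, 3 and 5 (log2 difference 0.93 with SE 0.34, adjusted p = 0.325, edgeR). Replicate 2 of CD1d-KO pMacs was the lowest of all 8 libraries and the other 3 were above all WT libraries. The log2 fold change of *Cd55* was 0.79 without pair 1 and 0.63 without pair 3. *Cr1l* and *Cd46*, which encode membrane regulators, had log2 fold changes of 0.08 and 0.01.

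Of 11 tested receptors and binding proteins, *Vsig4*, a receptor of macrophages for C3b and iC3b, was higher and *Itgax* lower at an unadjusted p under 0.05. *Vsig4* had 1079, 834, 898 and 1108 normalized counts in WT and 1575, 731, 1331 and 1653 in CD1d-KO replicates 1, 2, 3 and 5. Pair 2 again had the opposite sign, and the log2 fold change of *Vsig4* was 0.38 (SE 0.13, adjusted p = 0.285, edgeR) and 0.33 without pair 1 (adjusted p = 0.595, edgeR). Without pair 2 it was 0.57 (adjusted p = 0.0235, edgeR), and without pair 3 or pair 5 it was 0.32. *Itgax* encodes the alpha chain of complement receptor CR4 and is a dendritic cell gene. It had 197, 271, 349 and 544 normalized counts in WT and 241, 158, 183 and 368 in CD1d-KO pMacs (log2 difference -0.48 with SE 0.19, adjusted p = 0.358, edgeR), and without pair 1 the value was -0.75 (adjusted p = 0.0916, edgeR). *Itgam* and *Itgb2*, the chains of complement receptor CR3, were high, at 689 ± 62.8 and 764 ± 131 TPM in WT (SD, n = 4 mice), with log2 fold changes of 0.08 and 0.00.

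**Figure D3:**
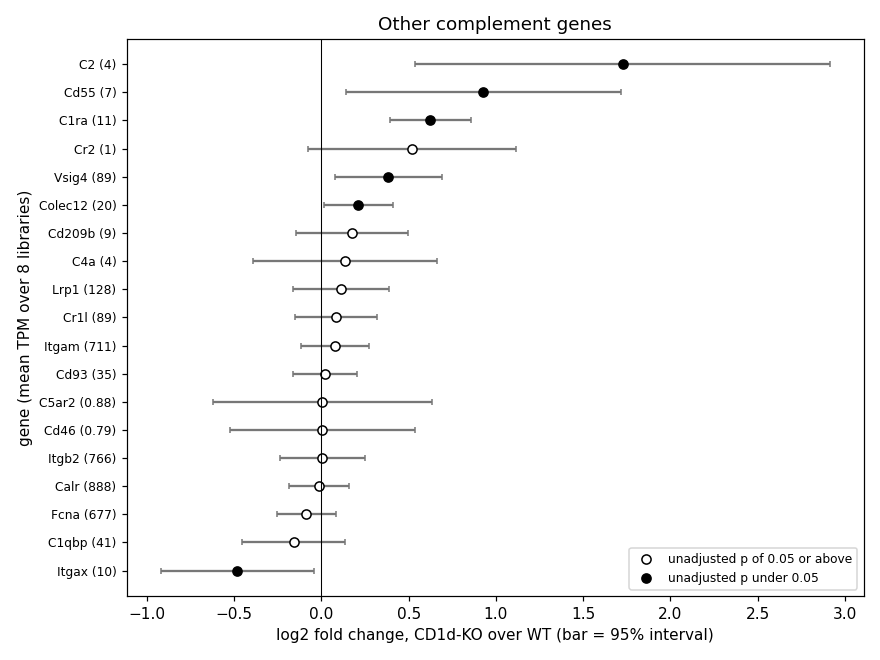
Log2 fold change of CD1d-KO over WT with its 95% interval (edgeR) for 19 of the 20 tested complement genes outside the group of 9, with the mean TPM over 8 libraries in brackets. Filled points had an unadjusted p under 0.05, *C2*, *Cd55*, *C1ra*, *Vsig4* and *Colec12* on the positive side and *Itgax* on the negative, and 0 of 20 had an adjusted p under 0.05.

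Gene lists outside complement also differed between pairs. The 22 genes of a list of interferon-stimulated genes all had positive log2 fold changes, with a median of 0.72, where 6650 of all 13040 tested genes were positive. At an unadjusted p under 0.05 in edgeR, 21 of 22 were higher in CD1d-KO pMacs, where 7.35% of all tested genes were. An adjusted p under 0.05 in edgeR was reached by 0 of 22. Their median log2 ratio was 1.64, 0.16, 0.24 and 0.95 in pairs 1, 2, 3 and 5. It was largest in pair 1, whose CD1d-KO library held *Cd1d1* against its label, and no summary of the list without pair 1 was made. The summed level of these 22 genes was 911, 5377, 9958 and 3631 TPM in WT and 2663, 6334, 11330 and 8882 TPM in CD1d-KO replicates 1, 2, 3 and 5. In WT mice the order of *Cfb*, from replicate 1 over 5 and 2 to 3, was the order of this sum. In CD1d-KO mice the order of *Cfb* by normalized counts, from replicate 1 over 2 and 5 to 3, was also the order of this sum. By TPM, *Cfb* was slightly higher in replicate 1 (1717 TPM) than in replicate 2 (1703 TPM). The order of *C3* in WT mice was different, with replicate 5 highest. The part of the interferon-stimulated genes in these differences was not tested.

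Markers of other cell types also varied by pair. The median log2 ratio of the list of small macrophages and dendritic cells was 0.17, -0.92, -0.43 and 0.27 in pairs 1, 2, 3 and 5, and that of the B cell list 0.44, -0.78, 0.01 and 0.69. Pair 2 had the lowest ratio in both lists and in 7 of the 9 genes (all but *Cfp* and *C3ar1*). The share of all tested genes with their lowest ratio in pair 2 was not counted, so 7 of 9 is only a description. Of the other complement genes, some had their lowest ratio in pair 2, among them *C2*, *C1ra*, *Cd55* and *Vsig4*. Others had their highest there, among them *C4a*, *Cr2*, *Itgb2*, *C1qbp* and *Lrp1*. The part of those cell types in these values was not tested. For the large macrophage list the medians were 0.29, 0.06, 0.29 and 0.04. At an unadjusted p under 0.05 in edgeR, 2 of its 8 genes were higher in CD1d-KO pMacs (*Timd4* and *Selp*) and 0 lower. Of 7 tested genes of the small macrophage and dendritic cell list, 0 were higher and 2 lower (*Folr2* and *Mrc1*). Of all tested genes 7.35% were higher and 5.01% lower, and 0 genes of either list had an adjusted p under 0.05 in edgeR. *S100a8* made up nearly all of the neutrophil list, which summed to 11.2 to 14.8 TPM in WT and 18.4 to 24.7 TPM in CD1d-KO pMacs, with *Ly6g* at 0 in all libraries.

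**Figure D4:**
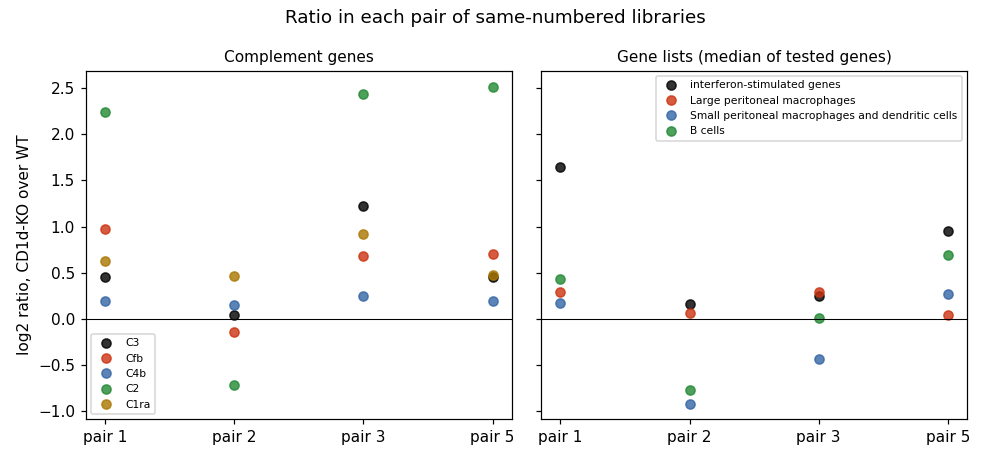
Log2 ratio of CD1d-KO over WT in each pair of same-numbered libraries, for 5 complement genes (left) and for the median of the tested genes in 4 lists (right). Pair 2 has the lowest value of all 5 complement genes and of the interferon, small macrophage and B cell lists, and *C3*, *C4b* and *C1ra* are positive in all 4 pairs.

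The genes whose log2 levels were most like each of these profiles over the 8 libraries were taken from 9904 tested genes with a mean of at least 50 normalized counts. For the mean of the C1q chains they were *H2-Ab1*, an MHC class II gene, *Frmd4b* and *Phlpp1*, with Pearson r between 0.949 and 0.951. *H2-Ab1* also belongs to the list of small macrophages and dendritic cells and ranged from 175 to 628 TPM. For *C3* they were *H2-Q7*, an MHC class Ib gene (r = 0.98), *Icosl*, which encodes a costimulatory ligand (r = 0.96), and *AC133103.1* (r = 0.96). For *Cfb* they were *Tapbpl*, which encodes a peptide editor of MHC class I (r = 0.99), *Prdm4* (r = 0.99) and *Gm12185* (r = 0.98), and for *C4b* they were *Bcar1* (r = 0.98), *C1ra* (r = 0.96) and *Adgb* (r = 0.96). The nearest to *Cfp* was *Plcb4* (r = 0.96), to *C3ar1* *Celf1* (r = 0.98) and to *C5ar1* *Meis3* (r = 0.97), which lies 60238 bases from it. High values of r are found for any profile when the best of so many genes is taken over 8 libraries. Among the 9 genes themselves, *Cfb* correlated with *Cfp* at 0.79, with *C4b* at 0.78, with *C1qa* at 0.81 and with *C3* at 0.70, while *C3ar1* and *C5ar1* had r between -0.17 and 0.55 with every other gene of the 9.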

How the data were processed

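RNA of pMacs from 8 mice (4 WT, 4 CD1d-KO) was sequenced, and samples were grouped by the genotype in their labels. The authors trimmed single-end reads with cutadapt, aligned them to GRCm38 with STAR 2.5.2a and quantified Ensembl genes with RSEM 1.3.0. They deposited expected counts, which are not normalized and share out reads that match several genes, and TPM, which are scaled for transcript length and depth. Column totals of the deposited expected counts were 13698864 to 19059432 per library.

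Expected counts were rounded and tested in edgeR 4.0.16 (R 4.3.3), with genes kept by filterByExpr, TMM normalization, the quasi-likelihood test and Benjamini-Hochberg adjustment over 13040 genes. Genotype and replicate number were the covariates, as in the study, which used DESeq2 and not edgeR. Deviations of same-numbered libraries from their genotype means correlated in every pair (r = 0.21 to 0.51), so the numbers were used as pairs. WT replicate 5 correlated slightly more with CD1d-KO replicate 1 (r = 0.22) than with its own number (r = 0.21). To normalize, each count was divided by its TMM-adjusted library size and multiplied by the mean library size. DESeq2 1.42.0, limma 3.58.1 on log2(TPM + 1), other scalings and filters, and leaving out each pair were alternatives, and a bias-adjusted edgeR fit was added after seeing the data. Scripts were tested on simulated data. All 28 pairs of libraries differed by more than counting noise. Gene coordinates came from GENCODE M21, which held 99.3% of gene IDs, and transcripts were compared with blastn 2.17.0.

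The genes named are the 9 complement genes, the tested genes of a list of 45 others, *Cd1d1*, marker genes where a result turns on them, and the 3 genes most like each profile. The genes and lists were chosen with earlier results of these data known. The result of 1 tested complement gene is not reported here.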

Additional observations from a re-analysis of the deposited data

Results flagged for a closer look

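Of 62 groups of 4 libraries checked for a library far from the others, 2 held one, and chance alone marks about 1 in 20 such groups. *Cd55* in CD1d-KO replicate 2 had 32.9 normalized counts, where CD1d-KO replicates 1, 3 and 5 had 251 to 277, a gap of 0.891 of the range. *Cd1d1* in the library labelled CD1d-KO replicate 1 had 60.1 normalized counts, against 0 to 1.13 in the other 3, a gap of 0.981 of the range. None of the 9 complement genes had such a library in either genotype.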

How the results depend on the processing

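The number of the 9 genes past the thresholds (adjusted p under 0.01, fold change above 1.5) was 0 in every alternative run, where the number of all genes was 5 in the reported fit and moved to 106 in DESeq2, 3 in limma, 236 without the filter on counts, 53 at an adjusted p under 0.05 with no fold change threshold and 3 to 22 with one pair left out. Without the filter, *C3* and *Cfb* had adjusted p of 0.00640 and 0.00493 with log2 fold changes of 0.54 and 0.55, below the fold threshold. Without the replicate block, 3 genes were called, and at an unadjusted p under 0.05 were 1 of the 9 genes (*C3*) and 2 of the 20 other complement genes. These latter counts were 1 to 3 and 1 to 6 with one pair left out, and limma gave 3 for the other genes. *C3* had an unadjusted p under 0.05 in 13 of 13 alternatives, *Cfb* in 9, *C4b* in 3 and *C1qa* in 1. Of the 9 log2 fold changes, 8 kept their sign in all alternatives, and *C1qc* turned to 0.034 without pair 2 (-0.064 to 0.034 over the fits with one pair left out). The cause was not tested.

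With 4 mice per genotype, 95% intervals reached from about 1.1-fold to 1.9-fold for *C3* and *Cfb*, so the size of these differences is loosely set. The library labelled CD1d-KO replicate 1 and pair 2 weigh on the values named above. Levels of RNA do not give levels of secreted or cleaved protein.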
